A study of Mus musculus with 19 samples.

Results

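The 7 genes described here encode the core of the class II antigen presentation pathway of the mouse: the class II chains H2-Aa, H2-Ab1 and H2-Eb1, the invariant chain Cd74, the peptide exchange chains H2-DMa and H2-DMb1, and the transcriptional regulator Ciita. They were found on the array as the probes whose RefSeq accession belongs to those symbols, and each gene was followed by its brightest probe. All 7 were found, among 38391 features measured in all. H2-Ab1 had 2 probes and each of the other genes had 1. H2-Aa, H2-Ab1, H2-Eb1, H2-DMa and H2-DMb1 lie on chromosome 17, Cd74 lies on chromosome 18 and Ciita on chromosome 16.

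RNA from 7 cell populations sorted from the bone marrow of untreated adult C57BL/6 mice, aged 8 to 12 weeks, had been hybridised to 19 custom Agilent arrays. The mice carried no engineered allele that the labels name. LSK cells (Lin- cKit+ Sca1+, stem and multipotent progenitor cells) were measured on 3 arrays and common myeloid progenitors (CMP; Lin- cKit+ Sca1-, CD34 high, CD16/32 low) on 3. Along the granulocytic branch there were 2 arrays of granulocyte-macrophage progenitors (GMP; CD34 high, CD16/32 high) and 3 of granulocytes (Gr1+). Along the erythroid branch there were 3 arrays of megakaryocyte-erythroid progenitors (MEP; CD34 low, CD16/32 low), 2 of early erythroblasts (Ter119+, large, CD44 high) and 3 of late erythroblasts (Ter119+, small, CD44 intermediate). Nothing in the labels ties replicates to separate animals, so each p-value rests on the spread among arrays alone, and that spread may be technical.

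Class II molecules are pairs of an alpha and a beta chain that carry peptides from the endosome to the cell surface, where CD4+ T cells read them. The invariant chain escorts each new pair to the endosome and blocks its groove. H2-DM then exchanges the remaining fragment of the invariant chain for other peptides, and H2-O, a related pair, inhibits H2-DM. Ciita binds no DNA itself but is recruited to the W, X and Y boxes of class II promoters by RFX, CREB and NF-Y factors. B cells, dendritic cells and macrophages are the classical cells that present antigen in this way, and mature neutrophils and red cells are not counted among them. C57BL/6 mice carry the b haplotype, in which H2-Ea is not transcribed, so H2-Eb1 RNA is made although the E pair is not displayed.

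Promoter sequences are shown for H2-Aa, H2-Eb1 and H2-DMb1, members with different patterns below, and for H2-Ob, a chain of the inhibitor H2-O. Each run gives bases 110 to 31 before the annotated start on the coding strand, from RefSeq on assembly GRCm38.p6. Capitals mark matches to motifs searched on both strands: CCAAT (the Y box core, read as ATTGG on the other strand), TGACG (a part of the X2 box), an X box pattern (CC, any 2 bases, G, any 2 bases, AC, any 4 bases, G) and a second X box pattern (AAC, any 2 bases, ATGATG), which was chosen after the sequences had been seen and overlaps the first in H2-DMb1 and H2-Ob.
H2-Aa, chr17:34287854-34287933, minus strand: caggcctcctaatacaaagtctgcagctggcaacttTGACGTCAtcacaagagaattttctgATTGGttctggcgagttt
H2-Eb1, chr17:34305757-34305836, plus strand: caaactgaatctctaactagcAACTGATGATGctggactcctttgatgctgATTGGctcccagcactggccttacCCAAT
H2-DMb1, chr17:34153081-34153160, plus strand: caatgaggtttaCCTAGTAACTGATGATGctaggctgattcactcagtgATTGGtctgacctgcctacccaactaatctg
H2-Ob, chr17:34238795-34238874, plus strand: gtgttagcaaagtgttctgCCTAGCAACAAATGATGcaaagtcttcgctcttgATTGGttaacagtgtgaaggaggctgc

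Counted from the start, the ATTGG letters began at −48 in H2-Aa, −59 in H2-Eb1, −61 in H2-DMb1 and −57 in H2-Ob. The second X box pattern ended upstream of them at −79 in H2-Eb1, −82 in H2-DMb1 and −75 in H2-Ob. In H2-Aa, which lacks both X box patterns in this window, the overlapping TGACG matches ended at −67. The shares over 32851 mouse promoters were counted from 250 bases before to 50 after the start, a longer window than the runs shown. Of these promoters 37.4% held CCAAT, 20.8% held TGACG, 17.1% held the first X box pattern and 0.137% (45 promoters) the second. H2-DMa has 2 listed starts; a CCAAT match began at −198 of one of them and a match to the first X box pattern at −176 of the other. The list held promoters of 4 of the 7 members. These matches describe letters in a window and say nothing of whether a factor was bound in these cells.

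Levels are given as the log2 of the background-subtracted spot intensity over the array's own 75th percentile, so 0 is the 75th percentile and each unit is a doubling. Each gene is set against itself across cell types and never against another gene, since probes differ in brightness. The 75th percentile was 50.1 to 81.3 intensity units on the 5 erythroblast arrays, against 266 to 607 on the other 14 arrays. Spots well above background made up 42.9% to 47.1% of all spots on the erythroblast arrays, against 49.5% to 66.3% on the others. The 100 brightest spots held 28.4% to 39.1% of all signal on the erythroblast arrays, against 12.3% to 15.4% on the others. The arrays lay on 5 slides, which were taken as possible batches. The main fit held no term for slide, and slide was a block only in an alternative fit. Marker lists went with the sort labels for LSK, GMP, granulocytes and erythroblasts. The summed level (linear, over the 75th percentile) of 5 LSK markers was 66.1 to 73.5 in LSK and at most 51.2 elsewhere, that of 5 GMP markers was 2275 to 2439 in GMP and at most 1187 elsewhere, that of 5 granulocyte markers was 3432 to 3788 in granulocytes and at most 673 elsewhere, and that of 6 erythroblast markers was 4303 to 8000 in erythroblasts and at most 80.7 elsewhere. The 6 genes listed for CMP and MEP did not set those cells apart, with sums of 303 to 331 in CMP, 292 to 320 in MEP and 417 to 937 in erythroblasts. Because whole sorted populations were measured, fewer cells of a type and less RNA per cell cannot be told apart.

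All 7 genes varied over the 7 cell types by limma's moderated F test, with Ciita closest to the threshold (adjusted p = 0.0408). Of 26224 features tested in the same way, 95.6% did so, a share close to that of the members.

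H2-Aa encodes the alpha chain of the A pair. Its log2 level was 1.25, 1.27 and 1.08 in the 3 LSK arrays, 0.41, 1.0 and 1.25 in CMP, −1.50 and −2.12 in GMP and 3.39, 3.40 and 3.42 in granulocytes. In the erythroid branch it was 1.05, 2.0 and 1.96 in MEP, −4.20 and −0.82 in early erythroblasts and −1.73, −1.72 and −1.72 in late erythroblasts. Granulocytes were the highest cell type and did not overlap with the next, MEP. MEP, LSK and CMP formed an overlapping middle, and late erythroblasts, GMP and early erythroblasts an overlapping bottom. The early erythroblast array at −4.20 was not well above background, and the pair of early arrays spanned the values of GMP and of late erythroblasts.

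H2-Ab1, the beta chain of the A pair, had levels of 5.15, 5.14 and 5.07 in LSK, 4.63, 4.95 and 4.98 in CMP, 3.70 and 3.35 in GMP and 6.73, 6.63 and 6.68 in granulocytes. Its levels were 5.12, 6.04 and 6.04 in MEP, 0.43 and 1.38 in early erythroblasts and 2.22, 1.95 and 2.14 in late erythroblasts. The order was granulocytes, MEP, LSK, CMP, GMP, late and then early erythroblasts, and MEP and LSK were the only neighbours whose arrays overlapped. The second H2-Ab1 probe gave the same order, with cell type means of 6.66 in granulocytes, 3.44 in GMP and 0.81 in early erythroblasts.

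H2-Eb1, the beta chain of the E pair, had levels of 3.59, 3.81 and 3.59 in LSK, 2.50, 3.02 and 3.19 in CMP, 0.61 and 0.07 in GMP and 6.48, 6.49 and 6.55 in granulocytes. It stood at 3.27, 4.51 and 4.36 in MEP, −0.24 and 0.94 in early erythroblasts and 1.90, 1.36 and 1.54 in late erythroblasts. Granulocytes again exceeded every other array. GMP lay as low as early erythroblasts, with which they overlapped, and below late erythroblasts without overlap.

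Cd74, the invariant chain, had levels of 3.43, 3.08 and 2.63 in LSK, 2.24, 2.45 and 3.09 in CMP, 0.56 and −0.31 in GMP and 5.91, 5.81 and 5.62 in granulocytes. It stood at 2.88, 4.01 and 4.17 in MEP, −0.29 and −0.40 in early erythroblasts and 1.09, 0.65 and 0.33 in late erythroblasts. The order of the cell types was that of H2-Aa: granulocytes apart at the top, an overlapping middle of MEP, LSK and CMP, and an overlapping bottom of late erythroblasts, GMP and early erythroblasts.

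H2-DMa and H2-DMb1 encode the chains of the peptide exchange factor, and their order was different. H2-DMa had levels of 3.84, 3.77 and 3.58 in LSK, 3.38, 3.62 and 4.0 in CMP, 3.36 and 3.0 in GMP and 1.85, 1.84 and 1.85 in granulocytes. It stood at 3.33, 3.20 and 3.73 in MEP, −1.77 and −0.93 in early erythroblasts and −0.61, −0.76 and −1.07 in late erythroblasts. LSK, CMP, MEP and GMP overlapped from one to the next; granulocytes lay below all of them and above the erythroblasts, with no overlap on either side.

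H2-DMb1 had levels of 3.45, 3.44 and 3.36 in LSK, 3.10, 3.72 and 3.88 in CMP, 3.84 and 3.72 in GMP and 3.14, 3.21 and 3.15 in granulocytes. It stood at 2.96, 3.29 and 3.41 in MEP, −2.19 and −1.01 in early erythroblasts and 0.17, −0.23 and −0.57 in late erythroblasts. The 5 cell types outside the erythroblasts overlapped from one to the next, and both erythroblast types lay below them.

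Ciita was dim throughout. Its levels were −1.56, −3.27 and −1.50 in LSK, −2.46, −1.62 and −1.15 in CMP, −3.69 and −2.68 in GMP and −2.68, −2.28 and −2.66 in granulocytes. It stood at −2.18, −1.69 and −2.40 in MEP, −4.52 and −3.10 in early erythroblasts and −3.42, −2.16 and −3.36 in late erythroblasts. It was not well above background on either early erythroblast array or on 2 of the 3 late erythroblast arrays. Every cell type overlapped with the next in the order CMP, MEP, LSK, granulocytes, late erythroblasts, GMP and early erythroblasts.

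**Figure D1:**
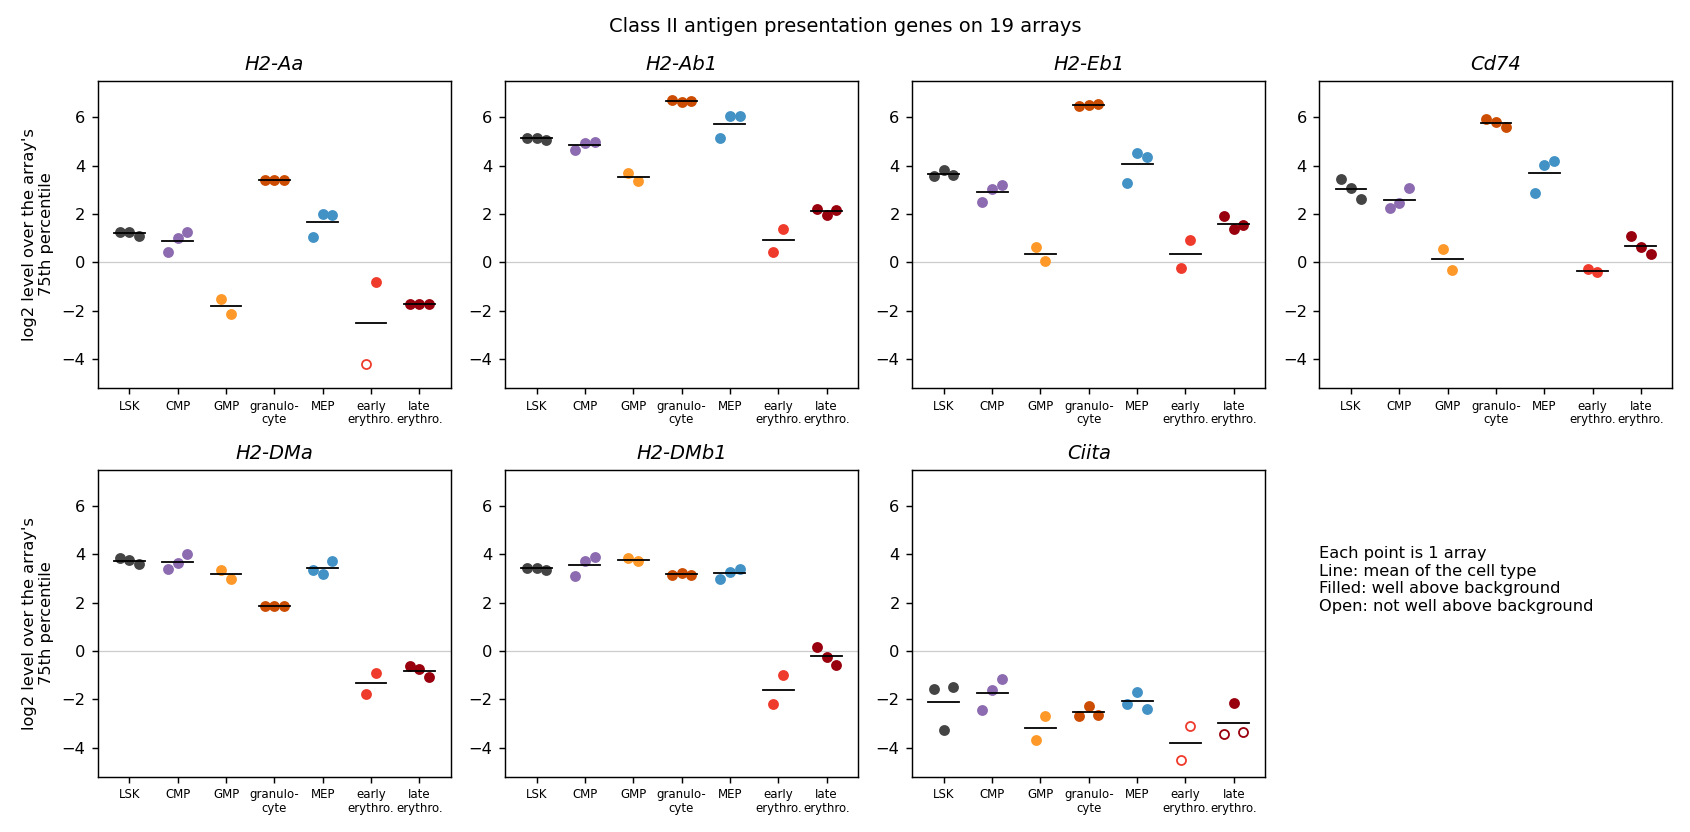
Log2 level over the array's 75th percentile (y axis) of each class II gene on 19 arrays, by cell type along the granulocytic and then the erythroid branch; each point is 1 array, lines are cell type means and open points were not well above background. H2-Aa, H2-Ab1, H2-Eb1 and Cd74 are highest in granulocytes, whereas H2-DMa is lower there (1.84 to 1.85) than in the progenitors (3.0 to 4.0), and Ciita lies at or below −1.15 on every array.

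Across the 19 arrays the 3 class II chains and Cd74 were correlated with each other at Pearson's r of 0.89 to 0.98, and H2-DMa with H2-DMb1 at 0.95. H2-DMa and H2-Eb1 were correlated at 0.40, and Ciita with the other members at 0.45 to 0.62. These coefficients describe 19 arrays of 7 cell types that share the array scaling, and carry no test.

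The comparisons below follow neighbouring stages of blood formation. Tests were limited to features that stood well above background throughout at least 1 of the paired cell types. A call needed a Benjamini-Hochberg adjusted p from limma under 0.05 and a higher group whose arrays were all well above background. Differences are log2 differences with the standard error (SE) of the fit over all 19 arrays.

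None of the 7 genes passed the test between CMP and LSK, against 36.8% of 24182 features tested (23.3% higher and 13.5% lower in CMP). With limma, 1 of the 7, H2-Eb1, had an unadjusted p under 0.05: its level averaged 2.90 ± 0.36 in CMP and 3.66 ± 0.13 in LSK (SD, n = 3 each), a difference of −0.76 ± 0.33 (SE, adjusted p = 0.0879). Within the shared slides the H2-Eb1 difference was −0.57 and −0.40. The median difference of the members was −0.27, beside 0.17 over all features tested. H2-Ab1 also did not overlap, as was true of 52.2% of all features tested, at 4.85 ± 0.20 in CMP and 5.12 ± 0.05 in LSK (SD, n = 3 each), with an adjusted p of 0.437. H2-Eb1 passed with normexp background correction, when only detected probes set the percentile, with quantile normalization and in a fit on the compared arrays only (adjusted p 0.02 to 0.0377).

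Of 22 further class II pathway genes tested, 4 were higher and 5 lower in CMP, beside the 36.8% called among all features. Cd86, a costimulatory ligand for CD28, averaged −3.32 in CMP and 0.01 in LSK, a difference of −3.33 ± 0.37 (SE, adjusted p = 6.17e-06). H2-Ob, a chain of the H2-DM inhibitor, fell by 1.74, and Ifi30, a thiol reductase that unfolds antigens in the endosome, rose by 1.60. Of 10 interferon and upstream genes, 1 was higher and 5 lower. Irf8, a transcription factor of the myeloid and dendritic lineages, averaged 6.70 in CMP and 3.99 in LSK, and Irf1, which interferon gamma induces, averaged 3.98 in CMP and 5.40 in LSK. Irf4 fell by 2.83, with a detected signal on 1 of 3 CMP arrays. Of 13 class I genes, 2 were higher and 4 lower; Nlrc5, the class I counterpart of Ciita, fell by 1.1, and the class I heavy chain H2-K1 fell by 0.65.

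**Figure D2:**
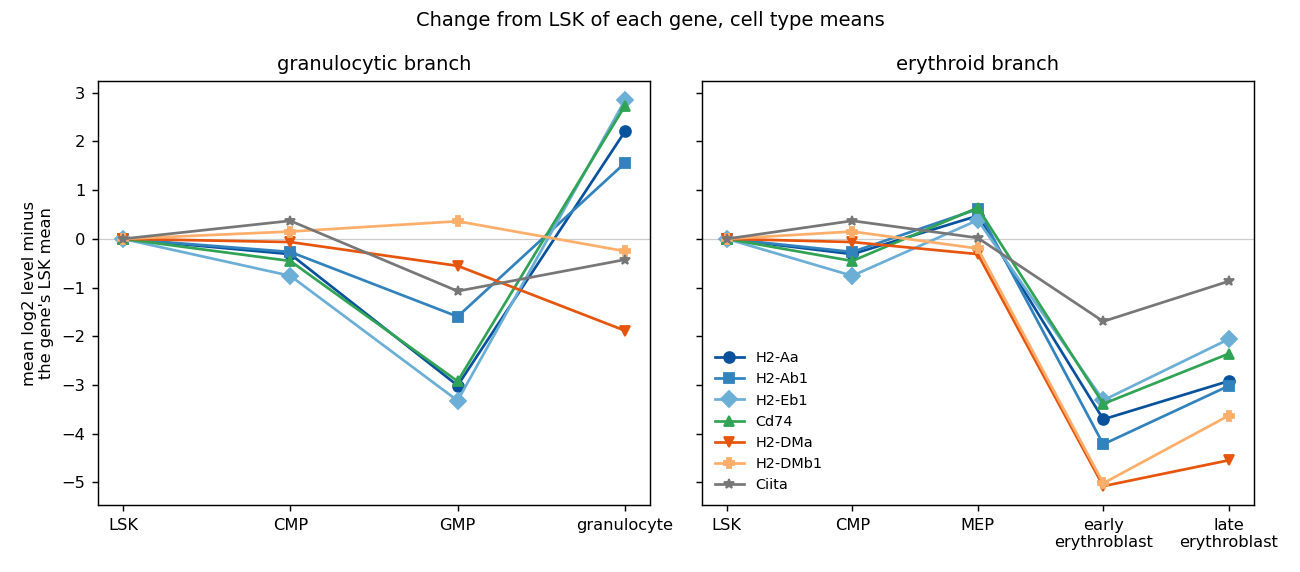
Cell type mean of the log2 level minus the gene's own LSK mean (y axis), along the granulocytic branch (left) and the erythroid branch (right); each line is 1 gene. H2-Aa, H2-Ab1, H2-Eb1 and Cd74 dip in GMP and lie above LSK in granulocytes, H2-DMa and H2-DMb1 do not share that course, and all 7 lie below LSK in both erythroblast types, where Ciita was not well above background on 4 of 5 arrays.

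GMP had lower levels of the class II chains and the invariant chain than CMP. Of the 7 genes 4 passed the test, all lower in GMP, where 18% of 22812 features tested were called (9.53% higher and 8.48% lower). H2-Aa averaged −1.81 ± 0.44 in GMP (SD, n = 2) and 0.89 ± 0.43 in CMP (SD, n = 3), a difference of −2.70 ± 0.64 (SE, limma adjusted p = 0.00725). H2-Eb1 averaged 0.34 ± 0.39 in GMP and 2.90 ± 0.36 in CMP, a 5.92-fold lower intensity (adjusted p = 0.000131). Cd74 was 5.54-fold lower in GMP (adjusted p = 0.000268) and H2-Ab1 2.51-fold lower (adjusted p = 0.00302). The arrays of these 4 genes did not overlap; 49.9% of all features tested did not. On the slide with arrays of both the differences were −3.12 for H2-Aa, −1.61 for H2-Ab1, −2.96 for H2-Eb1 and −2.76 for Cd74. Without the second GMP array the H2-Aa difference was −2.39 and no longer passed (adjusted p = 0.0808).

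Neither chain of the exchange factor passed the test. H2-DMb1 averaged 3.78 ± 0.08 in GMP (SD, n = 2) and 3.57 ± 0.41 in CMP (SD, n = 3), with a difference of 0.21 ± 0.30 (SE, adjusted p = 0.735). The H2-DMa difference was −0.49 ± 0.24 (adjusted p = 0.214) and that of Ciita −1.45 ± 0.59 (adjusted p = 0.115); neither gene overlapped between the groups. The median difference of the 7 genes was −1.45, beside 0.04 over all features tested. Dendritic cell markers were also lower in GMP: 7 of 9 tested fell and none rose. Their median level was −3.25 to −3.21 on the GMP arrays against −1.01 to −0.17 on the CMP arrays. Zbtb46 was well above background on no GMP array, and Xcr1 on no array of either cell type. The summed level of all 10 was 259 to 314 in GMP and 273 to 331 in CMP, most of it from 1 probe, Siglech; without Siglech it was 6.75 to 6.80 in GMP and 29.9 to 40.2 in CMP. Of 10 B cell markers tested, 1 was higher and 3 lower in GMP. Their summed level was 17.9 to 20.3 in GMP and 11.4 to 17.0 in CMP, and without the brightest, Cd79b, 3.72 to 4.08 in GMP and 3.82 to 5.56 in CMP; Pax5, Ebf1 and Blk were well above background on no array of either. Monocyte markers were higher in GMP in 1 of 6 tested and lower in none. Their summed level was 243 to 249 in GMP and 92.6 to 175 in CMP. Macrophage markers were higher in 2 of 9 and lower in none, and T and NK cell markers higher in 1 of 8 and lower in 2. The part of these markers in the class II difference was not tested.

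Among 20 further class II pathway genes tested, 2 were higher and 3 lower in GMP. Lgmn, an endosomal asparaginyl endopeptidase, fell by 2.23 (GMP mean −0.52, CMP mean 1.71) and H2-Ob fell by 1.56. Ctsb, a lysosomal cathepsin, rose by 0.86, and Cd80, a costimulatory ligand like Cd86, rose by 0.88. Of 13 class I genes, 2 rose and none fell: Calr and Pdia3, chaperones of the endoplasmic reticulum, were higher by 1.03 and 0.84. Of 9 interferon and upstream genes tested, 1 rose (Ifngr2, by 0.75) and 1 fell (Prdm1, by 1.86).

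Between MEP and CMP none of the 7 genes passed, against 4.52% of 22842 features tested (1.86% higher and 2.65% lower in MEP). With limma, 3 of the 7 had an unadjusted p under 0.05, all higher in MEP. H2-Ab1 averaged 5.73 ± 0.53 in MEP and 4.85 ± 0.20 in CMP (SD, n = 3 each), a difference of 0.88 ± 0.25 (SE, adjusted p = 0.0602). The H2-Eb1 difference was 1.14 ± 0.33 (adjusted p = 0.0672) and that of Cd74 1.09 ± 0.34 (adjusted p = 0.0946). H2-Ab1 and H2-Eb1 did not overlap between the groups (2 of 7 members, beside 27.2% of all features tested). For H2-Ab1, H2-Eb1 and Cd74 the first MEP array lay below the other MEP arrays and nearer to CMP. It shared slide 2 with the first CMP array, which was likewise the lowest CMP array for these genes. The part of the slide was not tested. Without the first MEP array, H2-Ab1 (1.19), H2-Eb1 (1.53) and Cd74 (1.5) passed, with adjusted p of 0.00829, 0.0107 and 0.0156. Within the 3 shared slides the MEP minus CMP difference was 0.49, 1.08 and 1.07 for H2-Ab1, 0.77, 1.49 and 1.18 for H2-Eb1 and 0.64, 1.55 and 1.08 for Cd74. With slide as a block those 3 genes passed, with adjusted p of 0.0475, 0.0462 and 0.0159. The median difference of the members was 0.79, beside −0.03 over all features tested.

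The other MEP arrays also differed from the first in T and NK cell markers. The median level of those 11 markers was −2.77 on the first MEP array and −0.30 and −0.71 on the others, against −2.92 to −2.69 on the CMP arrays. Their summed level was 42.1 to 60.6 in MEP and 34.0 to 42.6 in CMP, and 3 of 9 tested were higher in MEP. Dendritic cell markers had a median of −0.97 on the first MEP array and −0.28 and −0.29 on the others. On the CMP arrays that median was −1.005 on the first and −0.37 and −0.17 on the others, and 0 of 9 markers were called by limma. Monocyte markers were lower in MEP in 5 of 6 tested and higher in none. Macrophage markers were lower in 3 of 9 and higher in none, and of 10 B cell markers tested none was called. The part of these markers in the class II values was not tested. Of 20 further class II pathway genes tested, 4 fell in MEP and none rose: Lgmn by 1.74, Ctss (cathepsin S, which trims the invariant chain) by 1.29, H2-DMb2 by 1.18 and Ctsb by 0.61. Irf8 fell by 1.63 and Ifngr2 by 0.89, the only 2 of 9 interferon and upstream genes called.

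MEP had higher levels of the class II chains and the invariant chain than GMP. The 4 genes called were H2-Aa, H2-Ab1, H2-Eb1 and Cd74, where 32% of 21938 features tested were called (13.6% higher and 18.5% lower). H2-Eb1 was 13.1-fold higher in MEP (difference 3.71 ± 0.37 SE, limma adjusted p = 1.96e-06) and Cd74 was 11.8-fold higher (adjusted p = 4.41e-06). H2-Aa was 11.2-fold higher (adjusted p = 0.000594) and H2-Ab1 4.62-fold higher (adjusted p = 1.96e-05). H2-DMa differed by 0.24 ± 0.24 (adjusted p = 0.51), H2-DMb1 by −0.56 ± 0.30 (adjusted p = 0.18) and Ciita by 1.09 ± 0.59 (adjusted p = 0.18). All members except H2-DMa had arrays without overlap (6 of 7, beside 57.8% of all features tested). On the shared slide the differences were 4.13 for H2-Aa, 2.69 for H2-Ab1, 4.45 for H2-Eb1 and 4.32 for Cd74. The comparison shares its arrays with those against CMP. Dendritic cell markers were higher in MEP in 7 of 9 tested and lower in 1. T and NK cell markers were higher in 6 of 9 and lower in 1, and B cell markers higher in 2 of 8 and lower in 1. Monocyte markers went the other way, with none of 6 higher and 5 lower. Macrophage markers were higher in 1 of 7 and lower in 3. The part of these lists in the difference was not tested. H2-Ob rose by 2.18 (MEP mean 1.77, GMP mean −0.42), whereas Ctsb, Cd80 and Ctss were lower in MEP by 1.47, 1.37 and 1.33 among 4 higher and 6 lower of 20 further pathway genes tested.

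**Figure D3:**
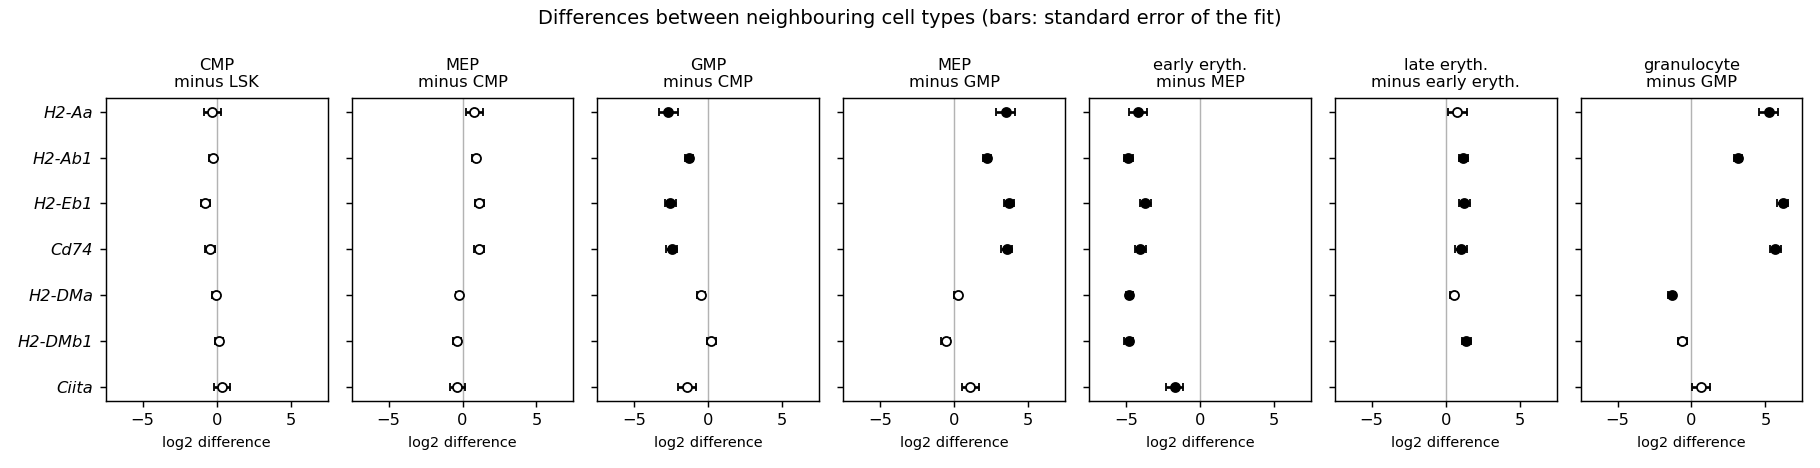
Log2 difference between neighbouring cell types (x axis) of each class II gene (rows), with the standard error of the limma fit; filled points passed the test. The filled points of H2-Aa, H2-Ab1, H2-Eb1 and Cd74 lie below 0 for GMP minus CMP and above 0 for MEP minus GMP and granulocyte minus GMP, H2-DMa and H2-DMb1 pass on the same side as the chains only in the erythroid comparisons, and Ciita was not tested in late minus early erythroblasts, where its row is empty.

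All 7 genes were lower in early erythroblasts than in MEP, where 81.4% of 22791 features tested were called (43.6% higher and 37.8% lower). H2-Ab1 averaged 0.90 ± 0.67 in early erythroblasts (SD, n = 2) and 5.73 ± 0.53 in MEP (SD, n = 3), a 28.5-fold lower intensity (difference −4.83 ± 0.28 SE, limma adjusted p = 4.42e-10). H2-DMb1 was 28.3-fold lower (adjusted p = 1.14e-09) and H2-DMa 27.2-fold lower (adjusted p = 1.33e-10). H2-Aa was 18.1-fold lower (adjusted p = 2.27e-05), Cd74 16.3-fold lower (adjusted p = 1.4e-07) and H2-Eb1 13-fold lower (adjusted p = 2.32e-07). No array of one group overlapped with the other for any of the 7, as was true of 86.4% of all features tested. The median difference was −4.18, beside 0.23 over all features tested.

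The values of H2-Aa and Ciita are less firm. H2-Aa was well above background on 1 of the 2 early erythroblast arrays, and without the other array its difference was −2.49. Ciita was well above background on neither, so its difference has only a bound. It was at least 1.72-fold lower in early erythroblasts, from the lowest signal well above background on those arrays. The limma adjusted p of 0.0142 belongs to the measured log2 difference of −1.716, which uses the undetected values, and does not test the bound. Without the first early erythroblast array the Ciita difference was −1.01 and did not pass (adjusted p = 0.203), and with normexp background correction it was 0.57, with the opposite sign. On the shared slide the 7 differences were all negative, between −4.66 (H2-Ab1) and −1.41 (Ciita). The low 75th percentile and the high share of signal in the brightest spots, given above for the erythroblast arrays, moved with these differences, and their part was not tested. Of dendritic cell markers 7 of 9 tested were lower and 2 higher in early erythroblasts, with a summed level without Siglech of 2.71 to 2.73 in early erythroblasts and 16.4 to 26.1 in MEP. Of monocyte markers 5 of 6 were lower and 1 higher, with a summed level of 7.56 to 10.9 in early erythroblasts and 19.9 to 34.4 in MEP. Macrophage markers were higher in 7 of 9 and lower in none, with sums of 8.44 to 8.74 in early erythroblasts and 1.36 to 1.61 in MEP. B cell markers were higher in 5 and lower in 3 of 9, and T and NK cell markers higher in 2 and lower in 3 of 9. The part of these markers was not tested.

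The rest of the antigen presentation genes did not fall as a block. Of 19 further class II pathway genes tested, 10 were higher and 7 lower in early erythroblasts. Among all features tested 43.6% were higher and 37.8% lower, so these counts do not set the pathway list apart. H2-Oa, the other chain of the H2-DM inhibitor, was at least 31.6-fold lower (well above background on no early erythroblast array, MEP mean 2.11). Ctsl, a cathepsin, fell by 3.58. Marchf8, a ubiquitin ligase that can take class II molecules off the surface, rose by 4.91 (early erythroblast mean 7.53, MEP mean 2.62), and Ctsb rose by 4.58. Of 13 class I genes, 1 was higher and 10 lower. Psmb8, an immunoproteasome subunit, fell by 5.69, Psmb10 by 4.83 and H2-K1 by 3.44, and Nlrc5 fell by 4.83 with 1 of 2 early erythroblast arrays well above background. Of 9 interferon and upstream genes tested, 1 was higher and 5 lower, among them Irf8 (−5.48 ± 0.25 SE), Irf1 (−4.05 ± 0.28 SE) and Ifngr1 (−3.84 ± 0.43 SE). Spi1, the gene of PU.1, was at least 3.58-fold lower. The median difference was −2.18 over the class I list and 0.58 over the class II pathway list, beside 0.23 over all features tested.

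Late erythroblasts had somewhat higher levels of several class II genes than early erythroblasts. Of the 6 genes tested 4 passed, all higher in late erythroblasts, where 59.9% of 19139 features tested were called (22.1% higher and 37.7% lower). H2-Ab1 averaged 2.10 ± 0.14 in late (SD, n = 3) and 0.90 ± 0.67 in early erythroblasts (SD, n = 2), a difference of 1.20 ± 0.27 (SE, limma adjusted p = 0.00162). The difference was 1.39 ± 0.30 for H2-DMb1 (adjusted p = 0.00101), 1.26 ± 0.37 for H2-Eb1 (adjusted p = 0.0083) and 1.03 ± 0.38 for Cd74 (adjusted p = 0.0298). H2-Aa (0.79 ± 0.63, adjusted p = 0.3) and H2-DMa (0.53 ± 0.24, adjusted p = 0.0722) overlapped between the groups and did not pass; the other 4 did not overlap, as was true of 68% of all features tested. Ciita could not be tested, since each group had arrays that did not detect it.

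The second early erythroblast array was higher than the first for each of these genes except Cd74 (−0.29 on the first and −0.40 on the second). Without the first early array H2-Ab1 (0.73, adjusted p = 0.052), H2-Eb1 (0.66, adjusted p = 0.185) and Cd74 (1.09, adjusted p = 0.0862) did not pass, H2-DMb1 still did (0.80), and H2-Aa was lower in late erythroblasts (−0.90, adjusted p = 0.0491). Without the second early array the H2-Aa difference was 2.47. Cd74 also did not pass without the first or the second late erythroblast array (adjusted p = 0.1 and 0.0519), and not without the second early one (adjusted p = 0.126). On the first slide the late minus early difference was 1.79 for H2-Ab1, 2.15 for H2-Eb1, 2.36 for H2-DMb1, 1.37 for Cd74 and 2.47 for H2-Aa. On the third slide it was 0.77, 0.60, 0.44 and 0.73 for the first 4 of these and −0.90 for H2-Aa.

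Most macrophage, monocyte, granulocyte and dendritic cell markers tested were higher in late erythroblasts, as were all 5 GMP markers. Among all features tested 22.1% were higher and 37.7% lower. Of macrophage markers 5 of 9 tested were higher in late erythroblasts and none lower, with a summed level of 10.5 to 18.7 in late and 8.44 to 8.74 in early erythroblasts; Mertk, Cd163 and Siglec1 were well above background on no array of either. Of monocyte markers 5 of 6 were higher, with a summed level of 18.3 to 20.7 in late and 7.56 to 10.9 in early erythroblasts. The 5 granulocyte markers summed to 613 to 673 in late and 132 to 433 in early erythroblasts, and all 5 were higher. The part of these marker lists in the class II differences was not tested. B cell markers had 0 of 8 higher and 3 lower, T and NK cell markers 2 of 8 higher and 4 lower, and dendritic cell markers 3 of 4 higher and none lower. Of 15 further class II pathway genes tested, 5 were higher and 5 lower in late erythroblasts, with Lgmn higher by 3.07 and Marchf1 by 1.4, and the promoter factors Nfyb and Creb1 lower by 1.36 and 1.26. Of 8 interferon and upstream genes, 5 were higher and none lower, Irf8 by 1.36 among them. Of 12 class I genes tested 3 were higher, Psmb8 by 1.54 and Psmb9 by 1.22 among them, and 6 lower, Tap1 by 1.47 among them; Erap1 was at least 1.74-fold lower.

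Granulocytes had much higher levels of the class II chains and the invariant chain than GMP, and a lower level of H2-DMa. Of the 7 genes 4 were higher and 1 lower, where 66.6% of 22951 features tested were called (27.7% higher and 38.9% lower). H2-Eb1 averaged 6.51 ± 0.04 in granulocytes (SD, n = 3) and 0.34 ± 0.39 in GMP (SD, n = 2), a 72-fold higher intensity (difference 6.17 ± 0.37 SE, limma adjusted p = 3.45e-09). Cd74 was 50.5-fold higher (adjusted p = 1.15e-08), H2-Aa 37.2-fold higher (adjusted p = 4.4e-06) and H2-Ab1 8.91-fold higher (adjusted p = 1.48e-07). H2-DMa averaged 1.85 ± 0.01 in granulocytes and 3.18 ± 0.26 in GMP, a 2.52-fold lower intensity (adjusted p = 0.000222). H2-DMb1 (−0.61 ± 0.30, adjusted p = 0.085) and Ciita (0.65 ± 0.59, adjusted p = 0.347) did not pass. The arrays of the 2 groups did not overlap for any of the 7 genes, as was true of 84% of all features tested. The median difference of the members was 3.15, beside −0.19 over all features tested. Granulocytes and GMP shared no slide. Granulocyte arrays 2 and 3 were alone on slide 5, so a term for slide absorbs them. With slide as a block the estimate rested on granulocyte array 1, linked to GMP only through other cell types. Its slide, slide 2, also held CMP array 1 and MEP array 1, the lowest of their types for H2-Ab1, H2-Eb1 and Cd74. That fit gave 7.10 for H2-Eb1, 6.69 for Cd74, 5.78 for H2-Aa, 3.83 for H2-Ab1 and −1.15 for H2-DMa. These have the same direction, but cannot check the difference over all 3 granulocyte arrays.

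Most B cell, macrophage, dendritic cell and T and NK cell markers tested were also higher in granulocytes than in GMP. Among all features tested 27.7% were higher and 38.9% lower. Of 15 B cell markers 12 were higher and none lower, with a summed level of 60.6 to 62.4 in granulocytes and 17.9 to 20.3 in GMP; all 15 were well above background on every granulocyte array, whereas Ms4a1, Pax5, Ebf1, Blk and Fcrla were on no GMP array. All 12 macrophage markers tested were higher, with a summed level of 89.2 to 92.0 in granulocytes and 9.70 to 9.84 in GMP. Dendritic cell markers were higher in 6 of 9 and lower in 1, and Xcr1 was well above background on no array of either. Their summed level without Siglech was 23.7 to 24.8 in granulocytes and 6.75 to 6.80 in GMP (with it, 271 to 290 in granulocytes and 259 to 314 in GMP). The sum without Siglech was 81.6 to 86.2 in LSK, 29.9 to 40.2 in CMP and 16.4 to 26.1 in MEP. T and NK cell markers were higher in 7 of 9 and lower in 1, with a summed level of 85.6 to 89.6 in granulocytes and 130 to 193 in GMP; without Nkg7, which carried most of the sum, it was 26.3 to 27.4 in granulocytes and 5.36 to 5.66 in GMP. Monocyte markers were higher in 2 of 7 and lower in 4, with a summed level of 74.4 to 76.3 in granulocytes and 243 to 249 in GMP. The part of these cells in the class II levels was not tested.

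**Figure D4:**
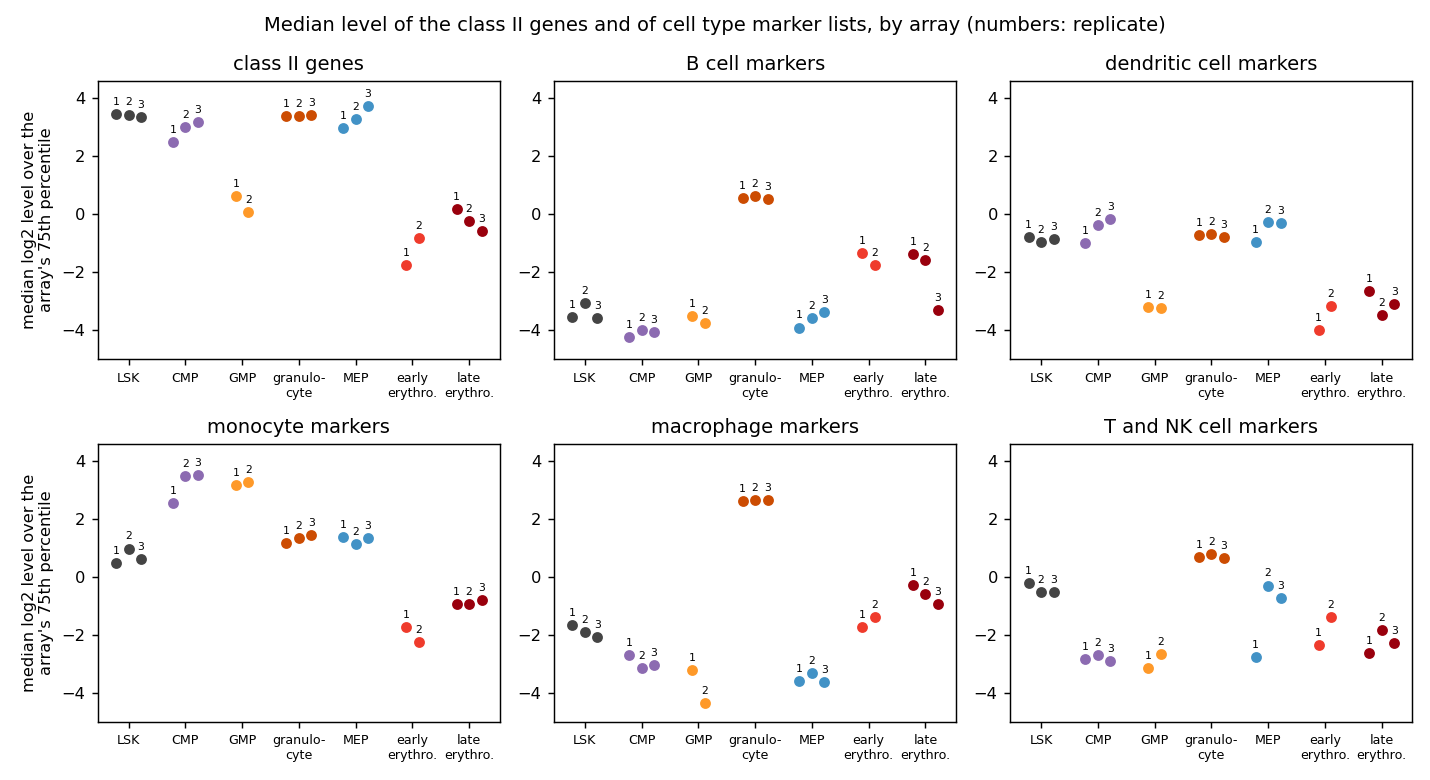
Median log2 level over the array's 75th percentile (y axis) of the 7 class II genes and of 5 marker lists on each array, by cell type (x axis); numbers are replicates. Medians of B cell, macrophage and T and NK cell markers are highest in granulocytes. The class II median is 3.39 to 3.42 there, beside 3.36 to 3.45 in LSK and 2.96 to 3.73 in MEP. Dendritic cell and class II medians are both lower in GMP than in CMP.

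Of 21 further class II pathway genes tested, 12 were higher and 2 lower in granulocytes. Among all features tested 66.6% were called, 27.7% higher and 38.9% lower. Lgmn rose by 4.18 (granulocyte mean 3.67, GMP mean −0.52), Cd86 by 3.39, Cd40, the receptor through which T cells license antigen-presenting cells, by 2.91 (detected on only 1 of 2 GMP arrays), and H2-DMb2, the second beta chain of H2-DM, by 2.32. Irf4, a transcription factor of B and dendritic cells, was at least 57.4-fold higher in granulocytes (mean 1.83) and well above background on neither GMP array. Prdm1 rose by 2.29 and Irf8 fell by 2.81, among 6 higher and 1 lower of 10 interferon and upstream genes. Of 13 class I genes 3 were higher and 6 lower, with Calr lower by 2.37, Pdia3 by 1.69, Psmb10 by 1.63 and Erap1 by 1.53. The median difference was 0.58 over the class II pathway list and −0.32 over the class I list.

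The named genes outside the 7 whose levels followed the mean of the 7 most closely, among 26225 features compared over 19 arrays, were Plek (Pearson's r = 0.986), the MAP kinase phosphatase Dusp6 (0.966), the AP-1 subunit Fosb (0.966), the integrin chain Itgax, also called CD11c (0.966), Tmem40 (0.965) and the histone demethylase Kdm6b (0.964). The members followed their own mean at 0.992 (H2-Ab1), 0.951 (H2-Aa), 0.913 (Cd74), 0.881 (H2-Eb1), 0.855 (H2-DMb1), 0.778 (H2-DMa) and 0.661 (Ciita). The arrays share scaling and the 7 cell types, and these coefficients describe likeness only.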

How the data were processed

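Total RNA was measured on 19 custom Agilent arrays of 62543 spots (1319 controls), 1 array per sample. Per the file headers, the deposited spot intensity came from the authors' run of Agilent Feature Extraction (version 11.5.1.1, protocol GE1_1105_Oct12, array annotation on mm9), with background subtracted and spots flagged. The labels give Cy5 as the dye, but there is a single, green channel in the files, and a 1-colour analysis was used. The authors' series value table held background-subtracted intensity without scaling between arrays and served as an alternative. Other steps are not given in the sources used here.

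Control spots and outlier-flagged spots were left out, spots of 1 probe were averaged, and the array's 75th percentile was subtracted on the log2 scale. RefSeq accessions gave 27235 of 59628 probes a name on GRCm38.p6. No member's spot was saturated. Differences came from limma 3.58.1 (R 4.3.3), with 7 cell type means over all 19 arrays, two-sided, with Benjamini-Hochberg adjustment over all features tested. The fitting code was checked on simulated arrays, whose values enter no result. The array count limits precision. Where no array of a group detected a probe, the fold is a bound ("at least N-fold"), taken per array against its dimmest detected probe or the probe's own signal, whichever was higher.

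The alternatives were normexp background correction (offset 50, on median spot signals, since the files hold no mean signal), quantile normalization, a percentile over 18787 probes detected on all arrays, the mean of all probes, no filter, the series value table, slide and replicate number as blocks, a fit on the compared arrays only, and leaving out each array. The members, the lists and the marker genes were chosen with earlier results of these data known. All members were named; from the lists of 23 class II pathway, 13 class I and 10 interferon and upstream genes, up to 4 past the test per comparison with the largest differences and no overlap were named, and the 6 genes nearest in pattern. Values of some single list genes are not reported here.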

Additional observations from a re-analysis of the deposited data

How the results depend on the processing

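The counts of members called in GMP minus CMP, MEP minus GMP, early erythroblast minus MEP and granulocyte minus GMP stayed within 1.5 times of the reported ones under all alternatives run. For granulocyte minus GMP the alternative with slide as a block rested on granulocyte array 1 alone. Between CMP and LSK, where none passed, 1 gene passed with normexp correction, 1 with the percentile over detected probes, 1 in the fit on the compared arrays and 2 with quantile normalization. Between MEP and CMP, where none passed, 4 passed with normexp, 2 when only detected probes set the percentile, 1 with quantile normalization, 3 with slide as a block and 0 to 3 when each array was left out. Between late and early erythroblasts, where 4 passed, 2 passed with normexp and 2 to 5 when each array was left out. Changes of sign were counted only where the main or the alternative fit passed. By that count the sign turned for Ciita in early erythroblast minus MEP with normexp (0.57). It also turned for H2-Aa in late minus early erythroblasts without the first early array (−0.90, and 2.47 without the second). The cause was not tested. Leaving out each array gave 3 to 4 genes in GMP minus CMP, 6 to 7 in early erythroblast minus MEP and 6 to 7 varying over all cell types. Over the 48 member differences tested, 408 values under other settings kept their side of the threshold, 19 passed in addition and 4 no longer passed. When arrays were left out these were 239, 6 and 8. The values that kept their side can include changes of sign where neither fit passed.

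Samples of the same replicate number did not deviate together (r −0.39 to 0.26), so the numbers were not taken as pairs. With replicate number as a block, 3 genes passed in late minus early erythroblasts, Cd74 no longer among them (1.03, adjusted p = 0.0502), 6 varied over all cell types, and the counts of the other comparisons were as reported. The percentile over detected probes moved the median of all features to −0.16 in CMP minus LSK (31.8% of calls higher, against 63.4%), −0.12 in GMP minus CMP (35.0% against 52.9%), 0.19 in MEP minus GMP (66.8% against 42.3%), 0.19 in late minus early erythroblasts (54.7% against 37.0%), 0.11 in granulocyte minus GMP (52.6% against 41.6%) and 0.07 in MEP minus CMP (62.7% against 41.3%). Quantile normalization gave 51.2% higher in CMP minus LSK, 41.9% in GMP minus CMP and 55.2% in MEP minus GMP, and normexp 63.0% in GMP minus CMP. Normexp gave 1981 calls over all features in MEP minus CMP, against 1032. Low signal limits Ciita, and H2-Aa in early erythroblasts, most.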
